A study of Mus musculus with 4 samples.

Results

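A set of genes that serve as standard readouts or feedback regulators of canonical Wnt signalling were described in mouse mesenchymal cells that expressed either a wild type or a mutant histone. The 10 genes, taken by symbol, were Axin2, Lef1, Tcf7, Tcf7l2, Nkd1, Nkd2, Sp5, Rnf43, Znrf3 and Lgr5, of 20325 gene symbols in the expression matrix. RNA had been sequenced from C3H10T1/2 cells, a multipotent mesenchymal line derived from C3H mouse embryos. In WT (2 libraries) the cells carried a stable FLAG-HA-tagged wild type H3.3 transgene, and in K36M (2 libraries) a stable FLAG-HA-tagged H3.3 with methionine in place of lysine 36. Both groups therefore carried a tagged transgene, were at passage 10 to 15 and were grown in medium with 10% fetal bovine serum. The promoter of the transgene, and whether each line was a clone or a pool, are not given in the sources used here. Nothing in the labels shows that the libraries of a group came from separate cultures. The p-values therefore rest on the spread between libraries of a group, and that spread may be technical.

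In canonical Wnt signalling, a Wnt ligand bound to a Frizzled receptor and an LRP co-receptor stops the destruction complex from degrading beta-catenin. Beta-catenin then enters the nucleus and acts with the TCF/LEF DNA-binding proteins, which repress their targets in its absence. Several targets encode inhibitors of the pathway (Axin2, Nkd1, Rnf43, Znrf3), so that they act as negative feedback and as a readout of signalling. In mesenchymal progenitors this pathway is known for favouring bone formation over fat and cartilage formation.

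Library totals ran from 23343297 to 56041798 expected counts (read numbers estimated by RSEM), deeper in K36M than in WT. Levels are given as CPM, counts scaled to a common library size by the TMM method, and a gene was called changed at an adjusted p under 0.05 in edgeR's quasi-likelihood test over the 13162 genes that passed a low-count filter. Means are given ± SD over n = 2 libraries. Mesenchymal markers were abundant, with 14 of 15 above the filter and summed levels of 31690 to 32030 CPM in WT and 23790 to 25510 CPM in K36M, 5 of them called higher and 8 lower. Markers of T lymphocytes, a cell type that also uses Tcf7 and Lef1, summed to 11.1 to 12.2 CPM in WT and 9.87 to 10.5 CPM in K36M, mostly Cd247, with Cd3e at 0 in every library (3 of 11 tested, 2 higher and 1 lower). Blood and macrophage markers summed to 3.59 to 3.69 CPM in WT and 34.0 to 36.1 CPM in K36M, of which Hba-a1 gave 26.7 and 25.3 CPM (4 of 9 tested, 3 higher). Epithelial markers stood at 11.0 to 12.1 and 24.3 to 25.8 CPM, mostly Cdh1 in K36M (22.3 and 24.1 CPM), with Epcam at 0 throughout. Of these markers 3 of 7 were tested, with 2 higher (Cdh1 and Krt8) and 1 lower (Krt14). Endothelial markers, mostly Tek, stood at 28.0 to 29.8 and 6.76 to 7.34 CPM (2 of 6 tested, 1 higher, Cdh5, and 1 lower, Tek). Neural markers, mostly Map2, stood at 182 to 183.1 and 62.5 to 63.3 CPM (4 of 7 tested, 1 higher, Tubb3, and 3 lower, Map2 among them). Lck, Hba-a1, Csf1r, Krt8 and Nt5e, all called higher, were below the filter's level of 0.337 CPM in both WT libraries, and Cd8a in 1 of them. These genes needed K36M libraries to pass the filter, so the marker counts are descriptive. Over all tested genes 38.5% were called higher and 37.1% lower, against which the marker counts should also be read. The part of these markers in the results below was not tested. In bulk RNA, a change in the number of cells that use a gene and a change of its RNA per cell cannot be told apart.

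The 10 genes did not move as a group. Axin2, Nkd1, Nkd2, Rnf43 and Lgr5 rose in K36M cells, the last from almost no reads, whereas the transcription factor genes Tcf7 and Tcf7l2 fell 7.56-fold and 4.99-fold. Znrf3 fell by a small amount, Lef1 did not pass the test and Sp5 was too low to be tested. Of the 9 tested genes 8 were called, against 75.6% of all tested genes, 5 higher (38.5% of all genes) and 3 lower (37.1% of all genes). A call was thus common in this comparison, and the sizes carry more than the count. Changes of at least 2-fold were called for 7 of the 9, 5 higher and 2 lower, against 12.7% and 8.69% of all genes. Both K36M libraries stood above both WT libraries for 5 of the 9 and below them for 3, as 44.0% and 43.1% of all tested genes did (87.1% for either direction). Axin2, Rnf43 and Lgr5 reached the filter's level of 0.337 CPM only in K36M libraries, so they could enter the test only by being higher there, and these counts describe the genes without testing them as a list. An exact permutation test of a single gene over 2 against 2 libraries cannot go below p = 0.333, two-sided, the value of 9 of the genes, while Lef1 had 0.667.

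**Figure D1:**
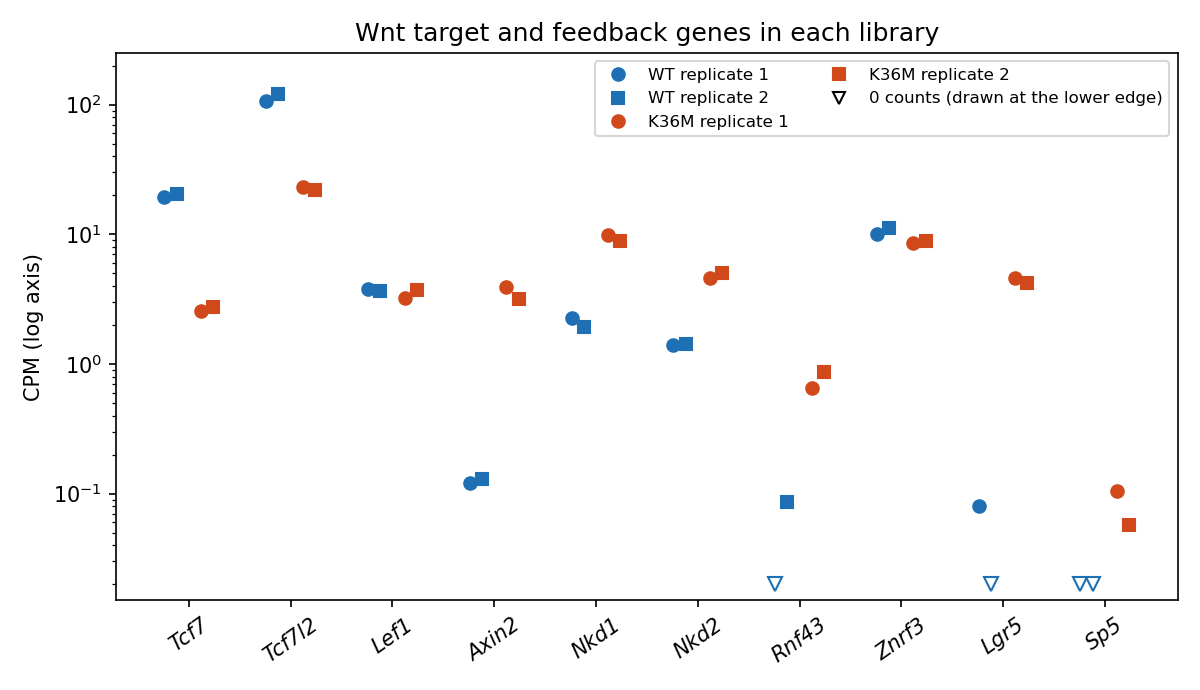
CPM of each of the 10 genes in each library on a log axis, with WT in blue, K36M in red, circles for replicate 1, squares for replicate 2 and open triangles for 0 counts. Tcf7 and Tcf7l2 lie lower in both K36M libraries, Axin2, Nkd1, Nkd2, Rnf43 and Lgr5 lie higher, and the Lef1 points of the groups overlap.

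To show what lies before the start sites of genes that moved in opposite directions, the 250 bases before the first RefSeq start are printed for Axin2 and Nkd1, which rose, Tcf7l2, which fell, and Sp5, a gene with very few reads (RefSeq, GRCm38.p6, written 5′ to 3′ on the gene's strand). Of the 10 genes 8 matched the promoter table and Znrf3 and Lgr5 did not. Capitals mark the letters CTTTGAT, a core bound by TCF/LEF proteins.
Axin2, chr11:108920099-108920348, plus strand: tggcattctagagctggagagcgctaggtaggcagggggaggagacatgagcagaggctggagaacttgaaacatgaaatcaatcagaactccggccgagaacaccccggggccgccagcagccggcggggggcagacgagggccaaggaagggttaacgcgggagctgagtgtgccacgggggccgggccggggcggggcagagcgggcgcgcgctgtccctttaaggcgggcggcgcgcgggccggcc
Nkd1, chr8:88527383-88527632, plus strand: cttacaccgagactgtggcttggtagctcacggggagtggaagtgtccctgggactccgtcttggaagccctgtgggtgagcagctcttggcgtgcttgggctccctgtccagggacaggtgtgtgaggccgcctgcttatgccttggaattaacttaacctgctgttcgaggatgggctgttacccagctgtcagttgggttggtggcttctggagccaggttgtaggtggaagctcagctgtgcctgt
Tcf7l2, chr19:55741560-55741809, plus strand: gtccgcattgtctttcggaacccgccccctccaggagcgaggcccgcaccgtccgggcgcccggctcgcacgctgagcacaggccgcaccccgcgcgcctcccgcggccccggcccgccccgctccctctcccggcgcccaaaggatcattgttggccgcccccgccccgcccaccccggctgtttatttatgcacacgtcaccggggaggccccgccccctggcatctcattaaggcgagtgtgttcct
Sp5, chr2:70474673-70474922, plus strand: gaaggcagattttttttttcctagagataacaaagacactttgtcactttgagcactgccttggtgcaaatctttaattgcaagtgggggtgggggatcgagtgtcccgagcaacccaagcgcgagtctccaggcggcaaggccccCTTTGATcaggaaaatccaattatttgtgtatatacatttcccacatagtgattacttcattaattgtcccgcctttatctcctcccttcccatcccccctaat

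CTTTGAT, read on both strands, was present in 1 of the 14 windows of these genes (some have several starts), that of Sp5, where its first base lies 104 bases before the start, and in 3.21% of all 32851 windows of that length. CTTTGAA, which shares 6 letters with it, was in 0 of the 14 and in 4.46% of all. Such a match is a description and not a bound site, and sequence beyond these windows was not searched. The windows differed in base composition. That of Tcf7 had 76.0% G and C with 37 CpG dinucleotides, that of Tcf7l2 72.8% with 30, and that of Axin2 69.2% with 24, whereas Sp5 (46.0%, 6) and Rnf43 (44.4%, 8) were below or near the median of all windows, 52.4% and 6. Lef1 had 66.4% with 11, and Nkd1 and Nkd2 both had 58.4%, with 6 and 14. The Tcf7 window holds an open reading frame from an ATG to its end, so its composition may partly be that of coding sequence. With Tcf7 set aside, a CpG-rich window was found for a gene that fell (Tcf7l2) and for a gene that rose (Axin2).

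Among the DNA-binding factors of the pathway, 2 of the 3 listed genes fell strongly. Tcf7, which encodes TCF1, read 19.3 and 20.5 CPM in WT, against 2.55 and 2.73 CPM in K36M. It was low in both K36M libraries and the groups did not overlap. The log2 fold change was -2.92 (SE 0.10, adjusted p = 6.7e-15, edgeR). Tcf7l2, which encodes TCF4, the main partner of beta-catenin in the gut, gave 107 and 120 CPM in the WT libraries but 23.3 and 22.0 CPM in K36M. These groups were also far apart, with a log2 fold change of -2.32 (SE 0.058, adjusted p = 4.59e-17, edgeR). Lef1, the factor most often counted as a Wnt target itself, had WT levels of 3.75 and 3.65 CPM and K36M levels of 3.24 and 3.71 CPM. Its second K36M library lay between the WT libraries, and the log2 fold change of -0.11 (SE 0.14) had an adjusted p of 0.504 (edgeR). Without K36M replicate 1 it was 0.0063, so no direction can be given for Lef1.

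Within a library the balance between these factors shifted, and ratios of this kind do not depend on scaling between libraries. For each Tcf7 read there were 0.194 and 0.178 Lef1 reads in WT and 1.27 and 1.36 in K36M, a 7.05-fold change of the ratio. For each Tcf7l2 read there were 0.18 and 0.171 Tcf7 reads in WT and 0.11 and 0.124 in K36M, so that Tcf7 lost more than Tcf7l2, 1.5-fold in the ratio. Tcf7l1, the relative known mostly as a repressor, also fell, from 112 ± 3.52 to 45.8 ± 3.03 CPM (log2 fold change -1.28, adjusted p = 5.97e-14, edgeR).

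Levels of different genes were compared only per kilobase of exon, with lengths from the protein-coding transcripts of GENCODE M21 and not from the annotation the authors used. On that scale the 4 TCF/LEF genes summed to 66.7 and 71.4 CPM per kb in WT and to 22.4 and 20.9 in K36M, a 3.19-fold lower sum. Tcf7l1 made up 52.6% of the sum in WT and 68.6% in K36M, and Tcf7l2 34.9% and 22.2%. The share of Tcf7 was 11.0% and 10.9% in the WT libraries and 4.35% and 4.98% in the K36M libraries, and that of Lef1 was 1.6% and 1.46% against 4.13% and 5.06%. The larger share of Lef1 came with a level per kb that hardly moved (1.06 ± 0.0207 and 0.991 ± 0.0954) while the other 3 genes fell.

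**Figure D2:**
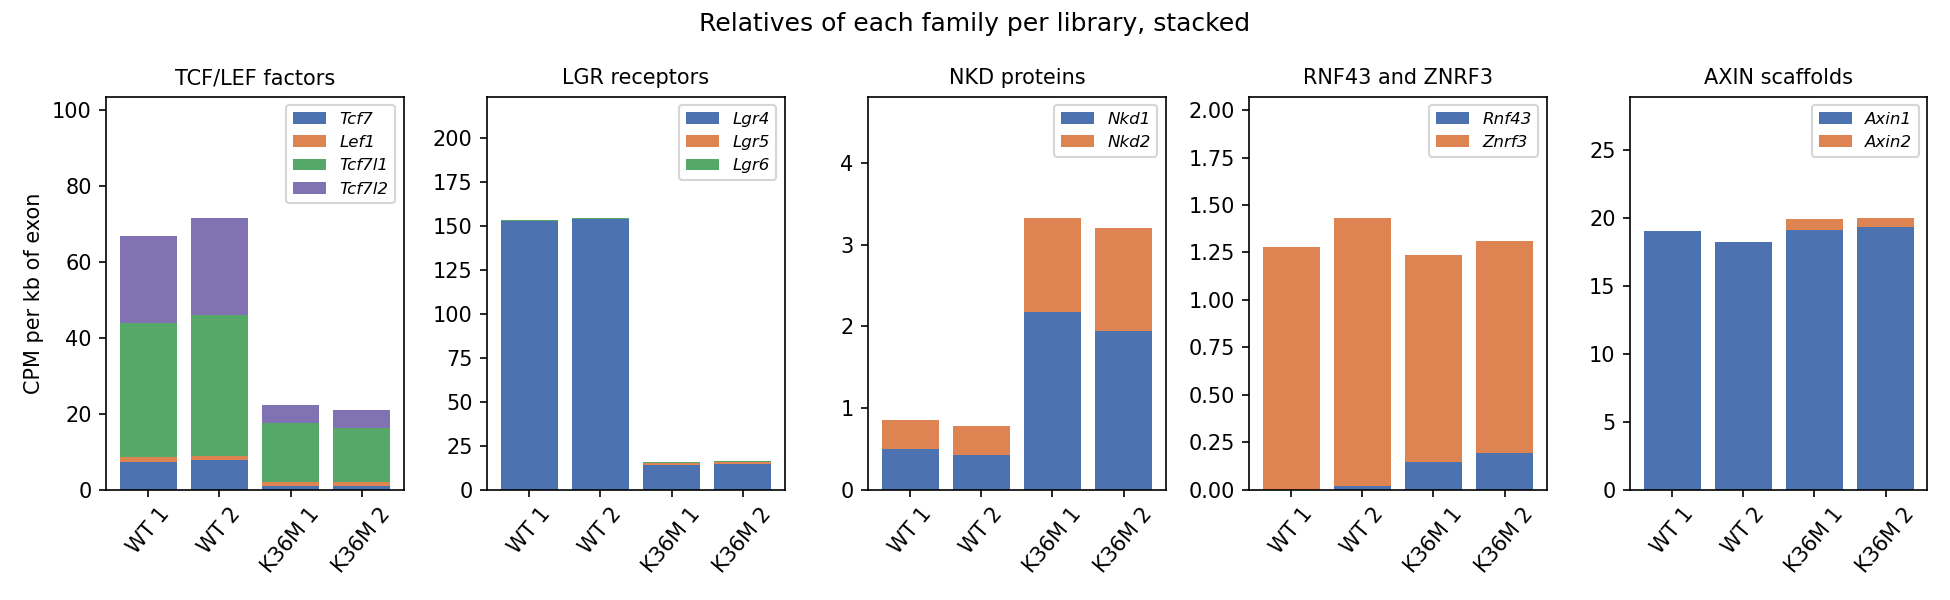
CPM per kilobase of exon in each of the 4 libraries, stacked by gene, for 5 families to which the described genes belong, each panel with its own axis from 0. The sums of the TCF/LEF and LGR families are lower in both K36M libraries, that of the NKD family is higher, and those of the other families differ by 1.07-fold.

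The intracellular feedback inhibitors rose. Axin2, a scaffold of the destruction complex and the most widely used Wnt target gene, had 3 and 3 counts in WT (0.121 and 0.130 CPM) and 222 and 110 counts in K36M (3.91 and 3.17 CPM). Both WT libraries were at the edge of detection, and the K36M libraries were far above them. The log2 fold change was 4.80 (SE 0.33, adjusted p = 1.86e-10, edgeR). From the pooled counts, 6 against 332, the ratio was 28.9 with a 95% Clopper-Pearson interval of 13.1 to 79.3. That interval covers counting error only and makes no allowance for duplicate reads. The authors' deposited table of genes with large changes lists Axin2 at 21.6-fold, a ratio of scaled counts after addition of 1.

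The rise of Axin2 was large as a ratio and small beside its constitutive relative. Axin1, the scaffold present in most cells, was at 71.7 and 68.6 CPM (WT) and at 72.2 and 72.8 CPM (K36M). Its log2 fold change of 0.05 (SE 0.046) had an adjusted p of 0.376 (edgeR) and was -0.04 with the authors' scaling factors. Per kilobase Axin2 made up 0.127% and 0.142% of the AXIN sum in WT and 3.91% and 3.16% in K36M.

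Nkd1 and Nkd2 encode the Naked cuticle proteins, which bind Dishevelled and dampen the signal. Nkd1 read 2.26 and 1.91 CPM in WT, against 9.95 and 8.84 CPM in K36M. All K36M values lay above all WT values, with a log2 fold change of 2.18 (SE 0.14, adjusted p = 5.66e-11, edgeR), or 4.52-fold. Nkd2 gave 1.41 and 1.43 CPM in the WT libraries but 4.56 and 5.07 CPM in K36M, 3.35-fold higher (log2 fold change 1.74, SE 0.17, adjusted p = 2.23e-08, edgeR). The genes rose side by side, and the ratio of Nkd1 to Nkd2 reads, 1.6 and 1.33 in WT and 2.18 and 1.74 in K36M, did not overlap between groups but moved only 1.34-fold. Whether the fold changes of the pair differ was not tested.

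The genes that act at the membrane moved apart. Rnf43 and Znrf3 encode related transmembrane ubiquitin ligases that remove Frizzled receptors from the cell surface. Rnf43 had 0 and 2 counts in WT and 37 and 30 counts in K36M (0.651 and 0.863 CPM). It was hardly detected in WT and low in K36M, yet every K36M value exceeded both WT values. With 2 against 67 counts the ratio was 17.5, with a counting interval of 4.66 to 147, and the test called it (adjusted p = 2.47e-05, edgeR, log2 fold change 4.02, SE 0.66). The fitted log2 value moved to 3.04 without WT replicate 1 and to 7.85 without WT replicate 2, which held the only WT counts.

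Znrf3 had WT levels of 10.1 and 11.2 CPM and K36M levels of 8.59 and 8.84 CPM. The groups did not overlap but lay close, and the gene was 1.22-fold lower (log2 fold change -0.29, SE 0.094, adjusted p = 0.0102, edgeR). This call was lost without WT replicate 2 (log2 fold change -0.22, adjusted p = 0.102) and with the DESeq2 Wald test (adjusted p = 0.0861). Per kilobase Rnf43 made up 0% and 1.34% of the pair's sum in WT and 11.7% and 14.5% in K36M. The sum of both was 1.28 and 1.43 CPM per kb in WT and 1.23 and 1.31 in K36M, which overlap.

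Lgr5, a receptor for R-spondins and a stem cell marker of the gut and hair follicle, rose from the edge of detection, and its ratio cannot be ranked against those of Axin2 and Rnf43, whose counting intervals overlap its own. It had expected counts of 2.45 and 0 in WT and of 263.3 and 145.16 in K36M, or 4.63 and 4.17 CPM in K36M. The gene was next to undetected in WT. From 2 against 408 rounded counts the ratio was 106.5 with a counting interval of 29.3 to 883 (adjusted p = 2.59e-11, edgeR, log2 fold change 6.61, SE 0.39). The fitted log2 value was 5.72 without WT replicate 2 and 10.4 without WT replicate 1, which held the only WT counts. The authors' deposited table lists Lgr5 at 52.9-fold, and of the 10 genes only Lgr5 and Axin2 are among its 594 entries.

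The related receptors did not follow Lgr5 in one direction. Lgr4, the broadly expressed member, was at 773 and 781 CPM (WT) and at 70.6 and 74.3 CPM (K36M), 10.7-fold lower (log2 fold change -3.43, SE 0.041, adjusted p = 1.04e-21, edgeR). Lgr6 rose from 2.56 ± 0.134 to 6.12 ± 0.31 CPM (log2 fold change 1.27, adjusted p = 1.01e-07, edgeR). Per kilobase the 3 receptors summed to 153 and 155 in WT and to 15.9 and 16.4 in K36M. The sum was 9.53-fold lower, and Lgr5 reached 6.19% and 5.38% of it in the K36M libraries.

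Sp5, a zinc finger gene that Wnt induces directly in embryos and that limits the response of other targets, was near silence in both groups. It had 0 and 0 counts in WT and 6 and 2 counts in K36M (0.106 and 0.0576 CPM). Zero counts in WT allow a level of up to 0.0628 CPM over the group (a floor of 3 counts), and the pooled K36M level was 0.0874 CPM. The lower end of the counting interval of the ratio was 0.891, so a difference was not detectable at this depth. Tested without the low-count filter, Sp5 had an adjusted p of 0.0862 (edgeR).

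**Figure D3:**
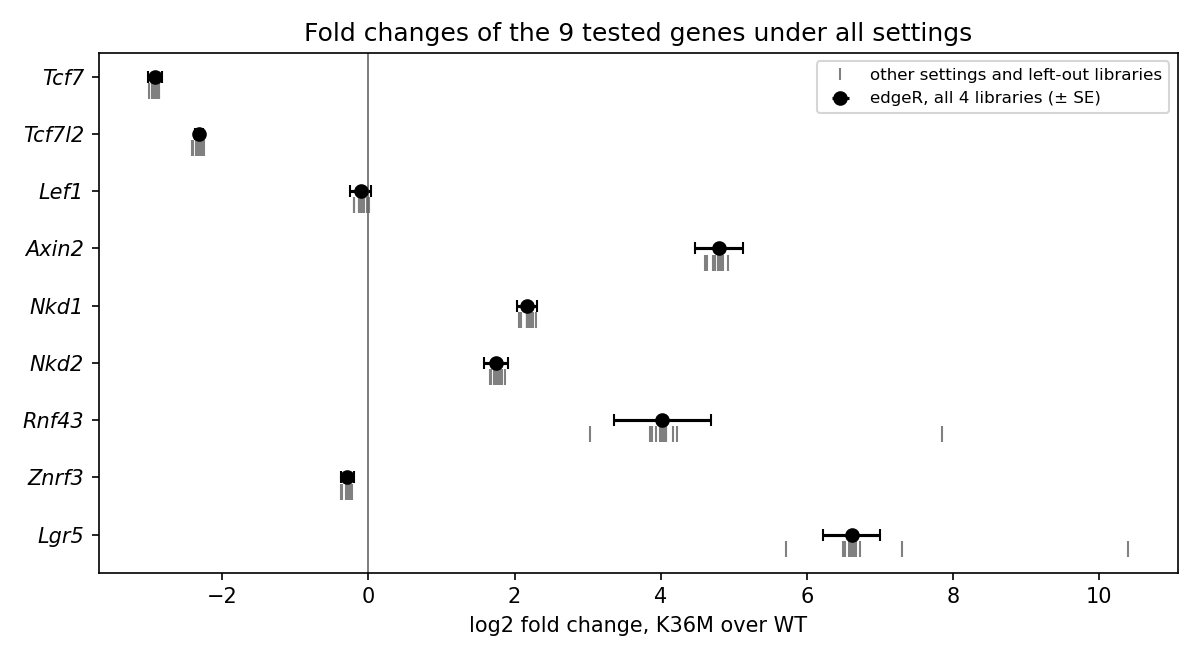
Log2 fold change of K36M over WT for the 9 tested genes (points, with bars of 1 standard error) and the same value under each other setting or with a library left out (grey ticks). Rnf43 and Lgr5, with 2 counts each in WT, have the widest spread of ticks, and the ticks of Lef1 reach 0.

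Ordered per kilobase, Tcf7l2 (24.1 ± 1.87 CPM per kb) and Tcf7 (7.58 ± 0.307) led in WT, followed by Znrf3 (1.35 ± 0.0967), Lef1, Nkd1 (0.458 ± 0.0539), Nkd2 (0.354 ± 0.00381) and Axin2 (0.025 ± 0.00131). Rnf43, Lgr5 and Sp5, each with 0 counts in at least 1 WT library, had no order at the bottom. In K36M Tcf7l2 (4.8 ± 0.19) still led, then Nkd1 (2.06 ± 0.173), Nkd2 (1.2 ± 0.0889) and Znrf3 (1.1 ± 0.0218). The libraries of Tcf7 (1.01 ± 0.0488), Lef1 and Lgr5 (0.934 ± 0.0687) overlapped and gave these genes no order, and Axin2 (0.703 ± 0.104), Rnf43 (0.167 ± 0.033) and Sp5 (0.0389 ± 0.0162) came last.

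The other genes of the pathway, 121 in 7 lists by role, also went both ways. The 28 that did not pass the filter had at most 33 counts over the 4 libraries, and 12 of them had 0. Of the 93 that could be tested 43 rose and 32 fell, with a median log2 fold change of 0.06 beside 0.00 over all genes tested. These counts lie near the 38.5% higher and 37.1% lower of all tested genes, against which the counts of each list below should also be read. At least 2-fold changes were called for 19 higher and 19 lower, beside 12.7% and 8.69% of all tested genes. Wnt7a, Tnfrsf19, Msx2, Sostdc1 and Cdx1, all called higher, were below the filter's level of 0.337 CPM in both WT libraries. They could enter the test only by being higher in K36M. Rspo1 (0.242 and 0.391 CPM), Wnt6 (0.242 and 0.434 CPM) and Wnt7b (0.525 and 0.304 CPM), also called higher, reached that level in only 1 WT library each. They needed K36M libraries to pass. Sfrp2, called lower, was below it in 1 K36M library (0.299 CPM) and passed through WT. The counts and medians of these lists thus describe the genes without testing them as lists. Of the 19 cytoplasmic genes 9 rose and 4 fell (median 0.06), 1 of them by at least 2-fold. Ctnnb1, the beta-catenin gene, read 1883 and 1860 CPM in WT, against 1173 and 1179 CPM in K36M, a fall of 1.59-fold (adjusted p = 1.93e-11, edgeR). Apc, a core part of the destruction complex, rose 1.17-fold, Dvl1, one of the Dishevelled genes, 1.46-fold, and Apc2 2.29-fold. Gsk3b, the kinase gene of that complex, named after its values were seen, fell 1.36-fold.

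Of 14 tested receptor genes 8 fell and 2 rose (median -0.35), beside 37.1% lower and 38.5% higher over all tested genes. Fzd9 fell from 45.1 ± 1.52 to 0.615 ± 0.148 CPM, Fzd8 from 113 ± 2.8 to 9.17 ± 0.521 CPM, and Ror1, a receptor of noncanonical Wnt signals, 13.8-fold. The co-receptor genes Lrp5 and Lrp6, named after their values were seen, fell 6.31-fold and 1.66-fold. Of the R-spondin list 3 of 5 tested genes rose and 2 fell (median 1.27). Besides Lgr4 and Lgr6, Rspo1 rose from 0.317 ± 0.105 to 4.86 ± 0.081 CPM and Rspo2 fell 7.92-fold from 329 ± 0.615 CPM, and Rspo3, named after its values were seen, rose 3.83-fold. R-spondins are the ligands that, through LGR receptors, clear RNF43 and ZNRF3 from the membrane.

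Of the Wnt ligands and their secretion genes 10 of 21 could be tested, of which 6 rose and 2 fell (median 0.69, beside 38.5% higher and 37.1% lower over all tested genes). Wnt9a rose 5.54-fold to 7.94 ± 0.45 CPM and Wnt6 5.54-fold to 1.85 ± 0.173 CPM. Wnt7a had 1 count in WT and 94 in K36M (ratio 49.1, counting interval 8.6 to 1960, adjusted p = 9.46e-07, edgeR), and its fitted log2 fold change of 5.41 was 4.48 without WT replicate 1 and 8.34 without WT replicate 2. Of the secreted antagonists 5 rose and 2 fell among 9 tested (median 0.97). Notum, an enzyme that inactivates Wnt proteins and a feedback gene, rose 20.4-fold to 42.7 ± 2.4 CPM. Sfrp2 fell from 184 ± 1.36 to 0.394 ± 0.134 CPM and Frzb, which encodes a related Wnt-binding protein, 79.5-fold.

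Among nuclear partners and repressors 4 rose and 7 fell of 14 tested (median -0.22). The corepressor gene Tle4 rose from 3.12 ± 0.606 to 15.1 ± 0.507 CPM, and the repressor genes Hic1 and Bach2 rose 7.07-fold and 4.9-fold. Ctnnbip1, an inhibitor of beta-catenin binding to TCF proteins, named after its values were seen, fell from 109 ± 3.05 to 22.7 ± 0.234 CPM. Among 22 tested genes of 29 often named as Wnt targets in other tissues 14 rose and 7 fell (median 0.43, beside the same 38.5% and 37.1%). Tnfrsf19 (log2 fold change 3.60) and Msx2 (3.3) rose, and Sox4 fell from 92.4 ± 4.81 to 7.89 ± 0.0922 CPM. Tnfrsf19 and Msx2 had few WT counts. Their values moved to 3.14 and 2.82 without WT replicate 1, and to 4.21 and 3.91 without WT replicate 2. The cell cycle targets Ccnd1 and Myc, named after their values were seen, rose 1.7-fold and 1.24-fold.

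**Figure D4:**
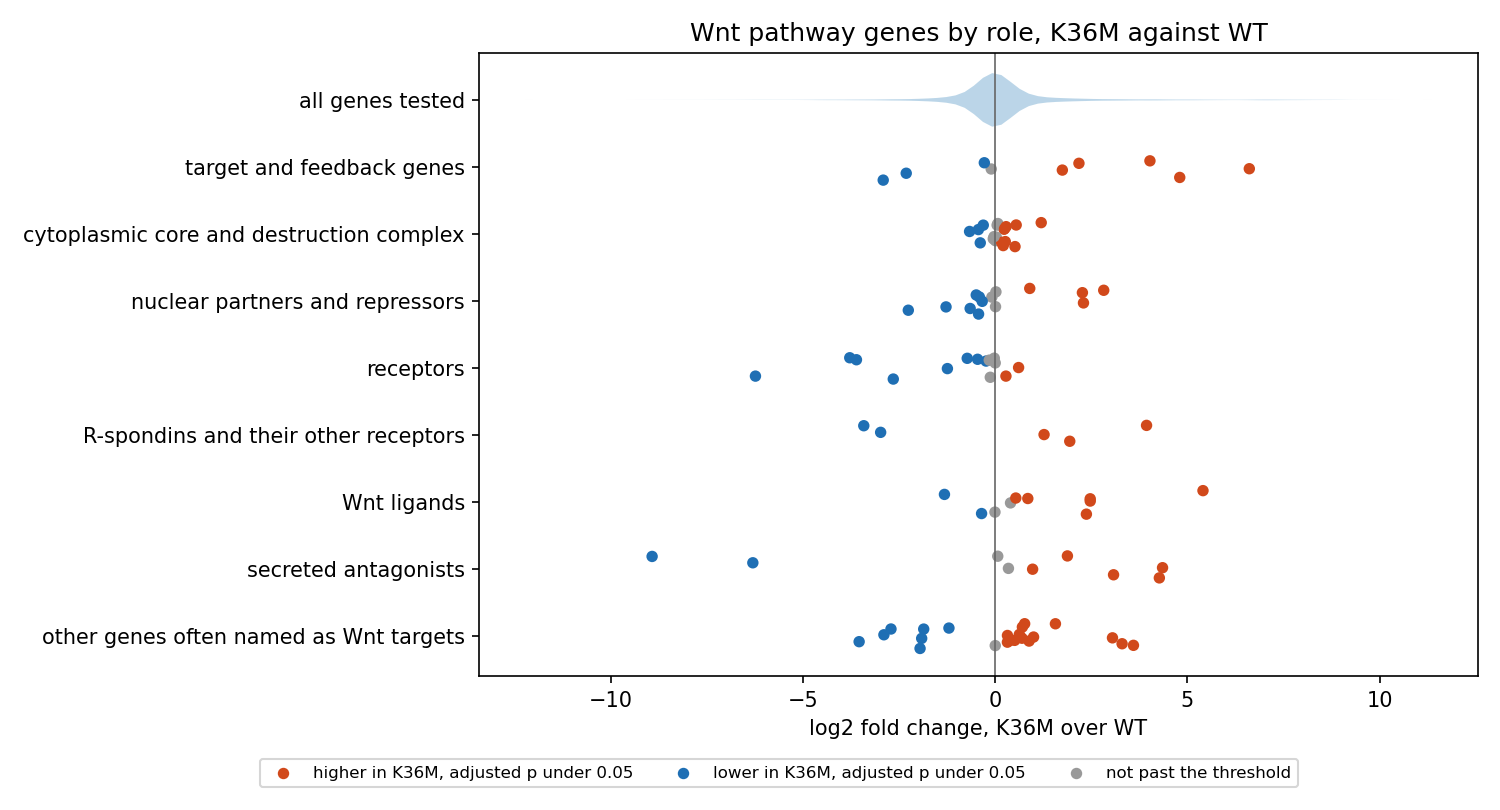
Log2 fold change of K36M over WT for each tested gene of the Wnt pathway, 1 row per role, with all 13162 tested genes as a violin on top and colours for the call at an adjusted p of 0.05. Every row holds genes on both sides of 0, and the 9 target and feedback genes run from -2.92 (Tcf7) to 6.61 (Lgr5).

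The genes whose centred log2 CPM profile over the 4 libraries lay nearest to that of Axin2 were 9330182L06Rik (Euclidean distance 0.103), Havcr2 (0.129), an immune checkpoint receptor gene, and Angptl4 (0.142), which encodes an inhibitor of lipoprotein lipase. Havcr2 gave 0.161 and 0.174 CPM in the WT libraries but 4.77 and 4.32 CPM in K36M. Over 4 libraries in 2 groups such likeness means little more than a difference of similar size.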

How the data were processed

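RNA was sequenced in 2 WT and 2 K36M libraries, grouped by their titles. The submitters' processing notes name Bowtie 1.0.0, RSEM 1.2.12 and the build mm9. The authors deposited raw expected counts from RSEM, which they used for EBSeq, per the file headers. Strand, poly(A) selection and annotation are not given in the sources used here. Antisense reads therefore cannot be told apart. In GENCODE M21, Axin2, Lef1, Tcf7, Nkd2, Rnf43 and Lgr5 overlap genes on the opposite strand that are absent from the matrix. That of Lgr5, A930009A15Rik, is protein-coding. The part of such reads in the counts was not tested. Expected counts of 3 of the 10 genes (Lef1, Sp5, Rnf43) were whole in every library, and the others were partly shared among features by RSEM. The authors' deposited table of 594 genes gives log2 values per library and a linear fold (ratio) of K36M over WT, and was used only for the values credited to it.

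Counts were rounded and fitted with edgeR 4.0.16 in R 4.3.3 (filterByExpr, TMM, glmQLFit and glmQLFTest, 2 residual and 15.7 prior degrees of freedom), with Benjamini-Hochberg adjustment over 13162 genes. The standard error is the log2 fold change over the square root of F. limma 3.58.1 (voom) and DESeq2 1.42.0 were alternatives. The script was tested on simulated data. Replicates were compared by a chi-square of their counts, which averaged 3.57 per gene for the WT pair and 7.66 for the K36M pair, above counting noise. Repeat runs of 1 library were not tested for. Floors are 3 counts. Named were all 10 genes, up to 3 called genes of each pathway list with the largest change and groups that did not overlap, and Ctnnb1, Tcf7l1, Lgr4, Lgr6, Axin1 and Apc. The 10 genes, the lists and the tests were chosen with earlier results of these data known.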

Additional observations from a re-analysis of the deposited data

How the results depend on the processing

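Scaling by DESeq2 size factors, upper quartile, total counts or the authors' factors, no low-count filter, a DESeq2 Wald test, limma-voom, thinning to the smallest library and leaving out each library in turn all gave 5 of the 10 genes called higher, and 2 or 3 called lower, the missing one being Znrf3. With a filter at a mean of 5 CPM only 1 gene (Nkd1) was called higher, since the other 4 lie below that level and were not tested. The libraries share replicate numbers, and the labels do not say what these mean. Same-numbered libraries did not deviate together over the tested genes (correlation 0.00263). With 2 libraries per group this cannot show what the numbers stand for. With the replicate number as a block 5 genes were called higher and 3 lower, and the log2 fold change of Znrf3 was -0.28 (adjusted p = 0.014, edgeR). With a library left out, the log2 fold change of Lef1 ran from -0.19 (without K36M replicate 2) to 0.0063 (without K36M replicate 1), and it was also -0.19 with the authors' factors, and that of Axin1 turned to -0.040 with the authors' factors, neither of them called. The pathway list had 30 to 47 genes called higher and 30 to 36 lower over all settings. Depth limits Sp5, and the sizes of the rises of Axin2, Rnf43 and Lgr5, which rest on 2 to 6 counts in WT.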
